A study of Homo sapiens with 6 samples.

Results

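The BH3-only genes of the BCL2 family were followed in T-24 cells, a line of human urinary bladder cancer cells, in 3 libraries from cells exposed to CCT068127 at 1 µM over 48 h and 3 libraries from cells given the vehicle DMSO. The members were the rows named BMF, BBC3, PMAIP1, BCL2L11, BID, BAD, BIK and HRK, and all 8 were found among the 38557 gene symbols of the deposited tables. CCT068127 is a small molecule known to inhibit CDK2 and CDK9, kinases of the cell cycle and of transcription, and poly(A) RNA was sequenced. All libraries came from 1 cell line at 1 dose and 1 time, so nothing here separates the compound from a property of this line, and the DMSO cells carry the same cancer background as the treated cells.

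BH3-only proteins start the mitochondrial pathway of apoptosis. Each carries a short helix, the BH3 domain, that fits into a groove of the pro-survival proteins BCL2, BCL-XL, BCL-W and MCL1, and some members can also bind the effectors BAX and BAK, which permeabilise the outer mitochondrial membrane. Several members are controlled mainly by transcription, such as BBC3 (PUMA), PMAIP1 (NOXA) and BCL2L11 (BIM), a known FOXO target. Others are held in check as proteins: BAD by phosphorylation and binding to 14-3-3 proteins, BID until cleavage by caspase-8, and BIM and BMF by docking to dynein light chains.

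The coding bases of the BH3 core are shown because this helix is what makes the 8 genes a family. The core was taken as a leucine, any 2 residues, a hydrophobic residue, a glycine, alanine or serine, an aspartate, any residue, and a phenylalanine, leucine or methionine. It was found in 1 place in the reading frame chosen for each member (GENCODE 29 transcripts on GRCh38). The 8 codons of the core are in capitals and the flanking bases in lower case.
BMF, chr15:40104201-40104224, minus strand, exon 4 of 5: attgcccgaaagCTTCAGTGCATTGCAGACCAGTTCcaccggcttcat
BBC3, chr19:47226585-47226608, minus strand, exon 3 of 4: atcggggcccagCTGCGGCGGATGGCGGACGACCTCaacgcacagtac
BCL2L11, chr2:111150103-111150126, plus strand, exon 3 of 4: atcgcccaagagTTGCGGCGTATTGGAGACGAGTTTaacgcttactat
PMAIP1, chr18:59902673-59902696, plus strand, exon 2 of 2: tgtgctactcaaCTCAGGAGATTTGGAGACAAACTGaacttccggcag
BID, chr22:17739421-17739444, minus strand, exon 4 of 6: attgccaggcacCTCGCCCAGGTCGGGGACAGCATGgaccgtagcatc
BAD, chr11:64271628-64271651, minus strand, exon 3 of 4: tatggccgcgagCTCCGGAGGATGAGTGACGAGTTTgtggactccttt
BIK, chr22:43127716-43127739, plus strand, exon 3 of 5: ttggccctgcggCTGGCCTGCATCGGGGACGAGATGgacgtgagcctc
HRK, chr12:116881176-116881199, minus strand, exon 1 of 2: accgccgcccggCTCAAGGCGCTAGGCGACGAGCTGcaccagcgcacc

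Total counts were 1966742 to 5557546 in the CCT068127 libraries and 5955296 to 411097626 in the DMSO libraries, where DMSO replicates 1 and 2 were far deeper than the other 4. Treated values therefore rest on few reads for the low members, for example 30, 10 and 37 counts of BMF. The 4 epithelial keratins KRT7, KRT8, KRT18 and KRT19 summed to 5277 to 6722 TPM in CCT068127 libraries and 3672 to 4869 TPM in DMSO libraries. Leukocyte, endothelial and fibroblast marker lists summed to at most 7.69 TPM in CCT068127 libraries and 14.8 TPM in DMSO libraries, with COL1A2 and DCN at 0 TPM in all 6. Fibroblast markers summed to 1.84 to 2.6 TPM in treated cells and 11.2 to 14.8 TPM in DMSO cells. Most of that sum was the single gene PDGFRB, at 1.66 ± 0.285 TPM in treated cells and 11.8 ± 1.69 TPM in DMSO cells (SD, n = 3). The part of these marker shifts in the results was not tested.

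The BH3-only genes did not move as a block. BMF, BBC3 and BCL2L11 fell, PMAIP1 and BID rose on the count scale, BAD did not pass the test, and BIK and HRK were too low to enter it. So 5 of the 6 tested members were called (adjusted p under 0.05), against 64.7% of the 13597 genes tested. By direction, 2 members were higher and 3 were lower, against 31.9% and 32.8% of all tested genes. The 3 lower members were all past a 2-fold change, as were 12.9% of tested genes in that direction. With so many genes called, the number of members called is not read as a result about the family. The median log2 fold change was -0.35 over the 6 tested members and -0.05 over all tested genes. With expression as TPM, 0 members were higher and 4 were lower (limma on log2(TPM + 1), which also tests BIK). BIK was 1 of these 4, on 2, 1 and 1 counts in the treated libraries. On that scale 17.2% of all genes tested were higher and 51.9% were lower, so 4 of 7 members is near the share of all genes. Under library totals 1 member was higher and 3 were lower, against 22.1% and 48.4% of all genes. The groups of CPM values did not overlap for 5 of the 6 tested members, against 69.4% of tested genes. In bulk RNA, fewer cells expressing a gene and less of its RNA per cell cannot be told apart.

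**Figure D1:**
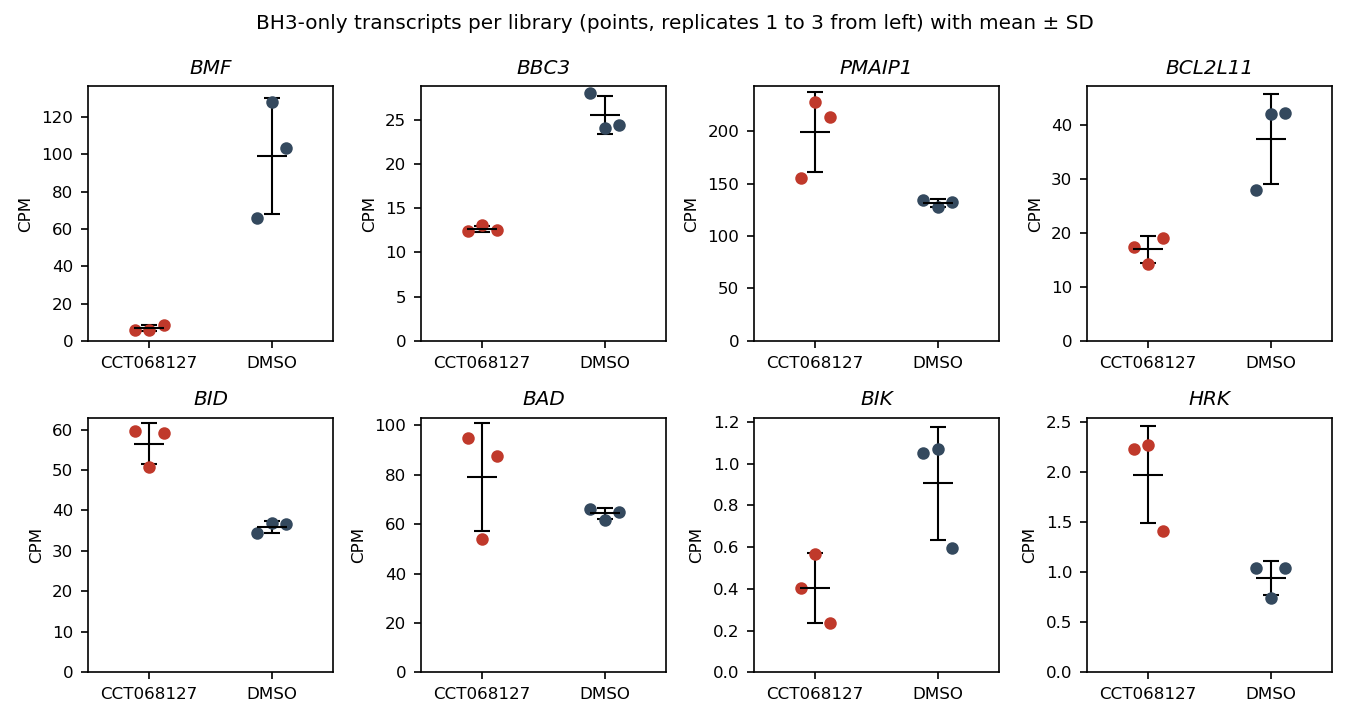
CPM (counts relative to the TMM-scaled library total; each panel has its own axis from 0) of the 8 BH3-only genes in the 3 CCT068127 and 3 DMSO libraries, with mean ± SD over 3 libraries. BMF stands at 5.69 to 8.73 CPM in treated cells and 66 to 128 CPM in DMSO cells, while PMAIP1 and BID lie higher in treated cells and BAD overlaps.

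BMF had by far the largest change. BMF (chromosome 15, 40087890 to 40108892, GRCh38) encodes a BH3-only protein known to sense loss of attachment and cytoskeletal disturbance. In CPM, counts relative to the TMM-scaled library total, it stood at 6.09, 5.69 and 8.73 CPM in CCT068127 replicates 1 to 3, against 66, 128 and 103 CPM in DMSO replicates 1 to 3. Even the highest treated library lay far below the lowest DMSO library, which was DMSO replicate 1. The mean was 6.84 ± 1.65 CPM in treated cells and 99.1 ± 31.2 CPM in DMSO cells (SD, n = 3 each). The log2 fold change was -3.81 ± 0.31 (SE; edgeR quasi-likelihood test, adjusted p = 5.1e-06), a 14.1-fold lower level. Only 49 of the 13597 tested genes (0.36%) had a lower log2 fold change. Against DMSO replicate 3 alone, whose depth is near that of the treated libraries, the log2 fold change was -3.91 (no test), and with the deep DMSO libraries thinned to that depth it was -3.83 (edgeR adjusted p = 6.45e-07). In TPM, which is per transcript length, BMF stood at 1.91, 1.85 and 2.93 in treated cells and at 30.8, 58.6 and 48.4 in DMSO cells. An antisense gene, BMF-AS1, shares 461 exonic bases with BMF in GENCODE 29 and was not analysed here, and with strandedness unknown the reads of the pair cannot be told apart.

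The genes nearest to BMF in pattern were TNFRSF11B, C2CD4A, ABCA6, ASS1 and TCIM, by the root mean square distance of centred log2 CPM over the 6 libraries. TNFRSF11B, which encodes the decoy receptor osteoprotegerin, was the closest, at a distance of 0.11 on the log2 scale, and averaged 6.25 ± 1.22 CPM in treated cells and 96.9 ± 28.9 CPM in DMSO cells (SD, n = 3). ASS1, the argininosuccinate synthase gene, averaged 14.2 ± 1.47 CPM in treated cells and 149.6 ± 17.5 CPM in DMSO cells. The distances of the other 3 genes were 0.28 (C2CD4A), 0.29 (ABCA6) and 0.36 (TCIM).

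BBC3 encodes PUMA, which binds all the main pro-survival proteins. BBC3 (chromosome 19, 47220822 to 47232766) stood at 12.4, 13.1 and 12.5 CPM in CCT068127 libraries, against 28, 24.1 and 24.4 CPM in DMSO libraries. The libraries of each group lay close together and the groups did not overlap. The log2 fold change was -1.03 ± 0.14 (SE; edgeR adjusted p = 7.7e-05), a 2.04-fold lower level, and 12.5% of tested genes had a lower log2 fold change. On log2(TPM + 1) values it was -1.38 (limma adjusted p = 5.24e-05).

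BCL2L11 encodes BIM, which binds every main pro-survival protein and exists in several spliced forms. BCL2L11 (chromosome 2, 111119378 to 111168447) stood at 17.5, 14.2 and 19.1 CPM in CCT068127 libraries, against 27.9, 42 and 42.3 CPM in DMSO libraries. DMSO replicate 1 was the lowest of its group, as it was for BMF, and the groups did not overlap. The log2 fold change was -1.09 ± 0.20 (SE; edgeR adjusted p = 0.000706), a 2.12-fold lower level. In TPM the difference was much smaller: 10.5, 12.2 and 11.9 TPM in treated cells and 12.4, 18.1 and 18.9 TPM in DMSO cells. The log2(TPM + 1) fold change was -0.46 (limma adjusted p = 0.0424), and the call was lost when no filter was applied (adjusted p = 0.0948). Relative to the median log2 fold change of all genes tested, BCL2L11 stood at -1.04 in the count fit and at 0.003 on the filtered log2(TPM + 1) scale. Without a filter on TPM the median of all genes was -0.04 and BCL2L11 stood at -0.42 relative to it, so its place among all genes on TPM values depends on the filter.

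The gap between counts and TPM can be read directly, because the deposited count divided by the deposited TPM of a gene is proportional to the length that the quantification assigned to its transcripts. This ratio, set to the median gene of its library, is called the implied effective length here, and it was chosen as a measure after the 2 tables had been seen to differ for this gene. For BCL2L11 it was 0.828, 0.6 and 0.822 in CCT068127 replicates 1 to 3, against 1.59, 1.6 and 1.6 in DMSO replicates 1 to 3. The DMSO libraries were nearly identical although their totals differed widely, and no treated library came near them. The ratio of treated to DMSO cells was 0.465, a log2 difference of -1.11 ± 0.14 (SE; limma across 13141 genes, adjusted p = 0.0182). Shorter implied lengths were called for 2.85% of those genes, longer ones for 4.19% and either for 7.05%, and 0.0913% of genes had a lower log2 difference than BCL2L11. The call was lost when any DMSO library was left out (adjusted p = 0.0764 to 0.107), with the difference between -1.11 and -1.1, and it held without any CCT068127 library. CCT068127 replicate 2, with 25 counts, was the lowest, and without it the difference was -0.95.

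In the other 5 tested members the implied length hardly differed, with treated over DMSO ratios between 0.987 (BBC3) and 1.03 (BMF and BAD), and none of them passed that test (limma adjusted p from 0.146 to 0.92). BMF passed without CCT068127 replicate 3 (0.06 on the log2 scale, adjusted p = 0.0245). With the ratio set to library totals in place of the median gene, all 5 passed as longer, by 0.14 to 0.20 on the log2 scale, and BCL2L11 stayed shorter at -0.95 (adjusted p = 0.00187). GENCODE 29 lists 25 BCL2L11 transcripts in 2 clearly separate sizes: 8 of 4995 to 5231 bases and 17 of 243 to 1522 bases. Which annotation the authors quantified against is unknown. On the other strand, the long non-coding gene MIR4435-2HG shares 727 exonic bases with BCL2L11, and it is unknown whether the counting used strand. MIR4435-2HG stood at 59.1, 57.5 and 65.1 CPM in treated cells, against 33.1, 27.9 and 24.4 CPM in DMSO cells (log2 fold change 1.07 ± 0.13, SE; edgeR adjusted p = 4.07e-05). Its part in the BCL2L11 values was not tested.

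**Figure D2:**
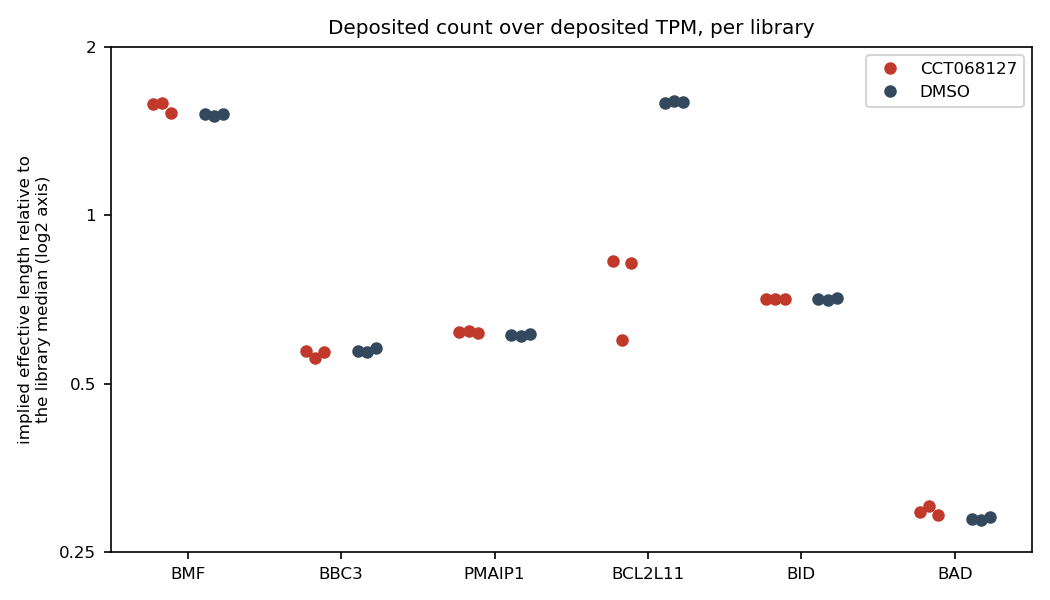
Implied effective length (deposited count over deposited TPM, relative to the median gene of each library, log2 axis) of the 6 tested BH3-only genes, with the 3 CCT068127 libraries left of the 3 DMSO libraries of each gene. BCL2L11 lies at 0.6 to 0.828 in treated cells and near 1.6 in DMSO cells, while the other genes have nearly the same value in both groups.

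The promoters of the 3 members that fell are shown with the short motifs of factors known to act on BH3-only genes. Each window runs from upstream of a RefSeq start site to just past it (GRCh38.p14). The motifs, searched on both strands, were GTAAACA (FOXO), TGACGT (the core of ATF and CREB sites), TGATGNAA (the composite site of ATF4 and CHOP), TTTCCCGC (E2F) and CCAAT (the CCAAT box). Matches are in capitals.
BMF promoter, chr15:40108830-40109129, minus strand: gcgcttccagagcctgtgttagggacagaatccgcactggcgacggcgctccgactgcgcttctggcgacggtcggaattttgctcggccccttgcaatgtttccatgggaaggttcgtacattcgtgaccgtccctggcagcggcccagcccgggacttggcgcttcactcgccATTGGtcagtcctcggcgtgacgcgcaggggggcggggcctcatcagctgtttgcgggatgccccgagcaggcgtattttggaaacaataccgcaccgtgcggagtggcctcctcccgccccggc
BBC3 promoter, chr19:47232618-47232917, minus strand: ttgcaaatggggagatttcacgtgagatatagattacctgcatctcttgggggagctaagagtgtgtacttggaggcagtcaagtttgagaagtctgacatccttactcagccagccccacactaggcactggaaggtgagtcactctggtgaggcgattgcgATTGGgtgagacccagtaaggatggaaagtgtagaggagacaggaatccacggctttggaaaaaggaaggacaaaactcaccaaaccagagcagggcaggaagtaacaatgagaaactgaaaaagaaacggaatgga
BCL2L11 promoter, chr2:111120664-111120963, plus strand: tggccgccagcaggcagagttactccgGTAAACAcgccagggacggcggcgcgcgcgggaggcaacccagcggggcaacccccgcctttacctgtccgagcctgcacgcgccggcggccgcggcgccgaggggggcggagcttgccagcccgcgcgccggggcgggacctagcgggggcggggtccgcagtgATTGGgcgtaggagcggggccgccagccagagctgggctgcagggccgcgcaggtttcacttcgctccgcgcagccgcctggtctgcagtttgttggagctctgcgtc

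The FOXO letters occurred in the BCL2L11 window, 223 bases before the start, and in 3.42% of all 35116 windows. A CCAAT box, present in 34.6% of all windows, was found in the BMF, BBC3 and BCL2L11 windows shown, and a further BMF window held no match to any of the 5 motifs. The TGACGT core, in 7.98% of all windows, occurred in PMAIP1 and BAD, and the TGATGNAA composite, in 3.62%, in HRK. None of the 5 BID windows held a match to these motifs, and a window for BIK was not used here. A match is a description of the letters and not a bound site, and a window without one says nothing of the factor.

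PMAIP1 encodes NOXA, which binds MCL1 with preference and is itself a short-lived protein. PMAIP1 (chromosome 18, 59899948 to 59904306) stood at 156, 228 and 214 CPM in CCT068127 replicates 1 to 3, against 135, 127 and 132 CPM in DMSO replicates 1 to 3. CCT068127 replicate 1 lay close above the DMSO libraries, and the other 2 were clearly higher. The log2 fold change was 0.59 ± 0.13 (SE; edgeR adjusted p = 0.00283). This rise rests on the scaling: scaled by library totals it was 0.28 (adjusted p = 0.0945), and for log2(TPM + 1) it was 0.09 (limma adjusted p = 0.603). In TPM the groups overlapped, with 125, 189 and 177 in treated cells and 155, 145 and 153 in DMSO cells.

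BID encodes the member that caspase-8 cleaves, linking death receptors to mitochondria. BID (chromosome 22, 17734138 to 17774770) stood at 59.7, 50.7 and 59.2 CPM in CCT068127 libraries, against 34.3, 36.9 and 36.6 CPM in DMSO libraries. All treated libraries were above all DMSO libraries, with CCT068127 replicate 2 the lowest of the 3. The log2 fold change was 0.67 ± 0.11 (SE; edgeR adjusted p = 0.000281), and 0.36 with library totals (adjusted p = 0.0117). On log2(TPM + 1) values BID did not pass (0.17, limma adjusted p = 0.144), with 41.8, 36.8 and 42.6 TPM in treated cells and 34.3, 36.1 and 36.5 TPM in DMSO cells. Relative to the median log2 fold change of all genes tested, BID stood at 0.72 in the count fit, at 0.64 on the log2(TPM + 1) scale and at 0.22 on that scale without a filter. PMAIP1 stood at 0.64, 0.56 and 0.14 in the same 3 fits.

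BAD encodes a member that survival kinases inactivate by phosphorylation. BAD (chromosome 11, 64269830 to 64284704) stood at 95, 54.1 and 87.7 CPM in CCT068127 libraries, against 66.1, 61.8 and 65 CPM in DMSO libraries. CCT068127 replicate 2, the shallowest library, lay below the DMSO libraries and the other 2 treated libraries above them. BAD did not pass (log2 fold change 0.34 ± 0.16, SE; edgeR adjusted p = 0.0881). The approximate 95% interval from that SE was 0.02 to 0.65. This interval is too narrow, since it lies wholly above no change although the unadjusted edgeR p of BAD was not under 0.05. Without CCT068127 replicate 2 BAD passed as higher (0.48, edgeR adjusted p = 0.00165), and on log2(TPM + 1) values its direction turned (-0.26, limma adjusted p = 0.277). Relative to the median log2 fold change of all genes tested, BAD stood at 0.39 in the count fit and at 0.20 on the filtered log2(TPM + 1) scale. Without a filter on TPM it stood at -0.22 relative to the median. GPR137, on the other strand, shares 404 exonic bases with BAD and stood higher in treated cells, at 0.44 ± 0.11 on the log2 scale (SE; edgeR adjusted p = 0.00407), and its part in the BAD values was not tested.

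BIK and HRK were scarcely expressed. BIK (chromosome 22, 43110748 to 43129712), a member that acts from the endoplasmic reticulum, had 2, 1 and 1 counts in CCT068127 libraries, against 435, 485 and 4 counts in DMSO libraries. In CPM it stood at 0.406, 0.569 and 0.236 in treated cells and at 1.05, 1.07 and 0.595 in DMSO cells. The groups did not overlap, but the nearest libraries were CCT068127 replicate 2 with 1 count and DMSO replicate 3 with 4 counts. A gap this small is not read as a separation. Pooled rates were taken over raw library totals, without the TMM scaling of the CPM values. Their ratio, treated over DMSO, was 0.28 (exact 95% counting interval 0.0761 to 0.72). Against DMSO replicate 3 alone it was 0.489, with an interval of 0.0911 to 2.62 that includes no change. HRK (chromosome 12, 116856144 to 116881441), a member best known from neurons, had 11, 4 and 6 counts in CCT068127 libraries and 433, 336 and 7 counts in DMSO libraries. Its level was 2.23, 2.28 and 1.42 CPM in treated cells and 1.04, 0.742 and 1.04 CPM in DMSO cells. The ratio of its pooled rates, again over raw library totals, was 1.75 (exact 95% counting interval 1.08 to 2.7). Against DMSO replicate 3 alone the ratio was 1.47, with an interval of 0.601 to 4.08. Without a low-count filter BIK passed as lower (-1.73, edgeR adjusted p = 0.0373) and HRK did not pass (0.81, adjusted p = 0.164). In that fit the median log2 fold change over all 29138 genes tested was -0.49. On filtered log2(TPM + 1) values BIK passed as lower too (-0.91, limma adjusted p = 0.00741). HRK passed as higher when the filter admitted it without CCT068127 replicate 3, DMSO replicate 1 or DMSO replicate 3 (adjusted p from 0.0221 to 0.0379), but not without DMSO replicate 2 (0.115).

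Compared per length, the order of the members changed at 1 place above all. In CCT068127 cells it was PMAIP1 (164 ± 34.3 TPM), BAD (135 ± 37.4), BID (40.4 ± 3.13), BCL2L11 (11.5 ± 0.934), BBC3 (11.4 ± 0.71), BMF (2.23 ± 0.607), BIK (0.7 ± 0.295) and HRK (0.543 ± 0.1; SD, n = 3). In DMSO cells it was BAD (157 ± 7.11 TPM), PMAIP1 (151 ± 5.74), BMF (45.9 ± 14.1), BID (35.7 ± 1.17), BBC3 (31.3 ± 2.94), BCL2L11 (16.4 ± 3.53), BIK (2.2 ± 0.641) and HRK (0.347 ± 0.0666). By mean TPM BMF was the sixth member in treated cells and the third in DMSO cells, where its range overlapped those of both BID and BBC3 and its value in DMSO replicate 1 (30.8 TPM) lay below both. Neighbours whose ranges overlapped were PMAIP1 and BAD, BCL2L11 and BBC3, and BIK and HRK in treated cells, and BAD and PMAIP1, BMF and BID, and BID and BBC3 in DMSO cells.

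PMAIP1 and BAD made up most of the pool in every library. BMF held 0.545%, 0.535% and 0.732% of the summed BH3-only TPM in CCT068127 libraries, against 7.09%, 13.4% and 10.8% in DMSO libraries. BBC3 held 3.07%, 3.51% and 2.79% in treated cells and 7.99%, 6.65% and 6.69% in DMSO cells. PMAIP1 held 35.6%, 54.7% and 44.3% in treated cells and 35.9%, 32.9% and 34.1% in DMSO cells, so its groups overlapped. The other 6 members without PMAIP1 and BAD summed to 66.2, 64.6 and 69.4 TPM in treated cells, against 115, 145 and 136 TPM in DMSO cells. BMF exceeded BCL2L11 in every DMSO library and not in any treated library, with BMF to BCL2L11 ratios of TPM of 0.183, 0.151 and 0.247 in treated cells and 2.48, 3.24 and 2.57 in DMSO cells. These ratios carry the shorter implied length of BCL2L11 in treated cells (0.465 of that in DMSO cells). In CPM, BMF and BCL2L11 averaged 6.84 and 16.9 in treated cells and 99.1 and 37.4 in DMSO cells, a smaller contrast in the same direction.

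**Figure D3:**
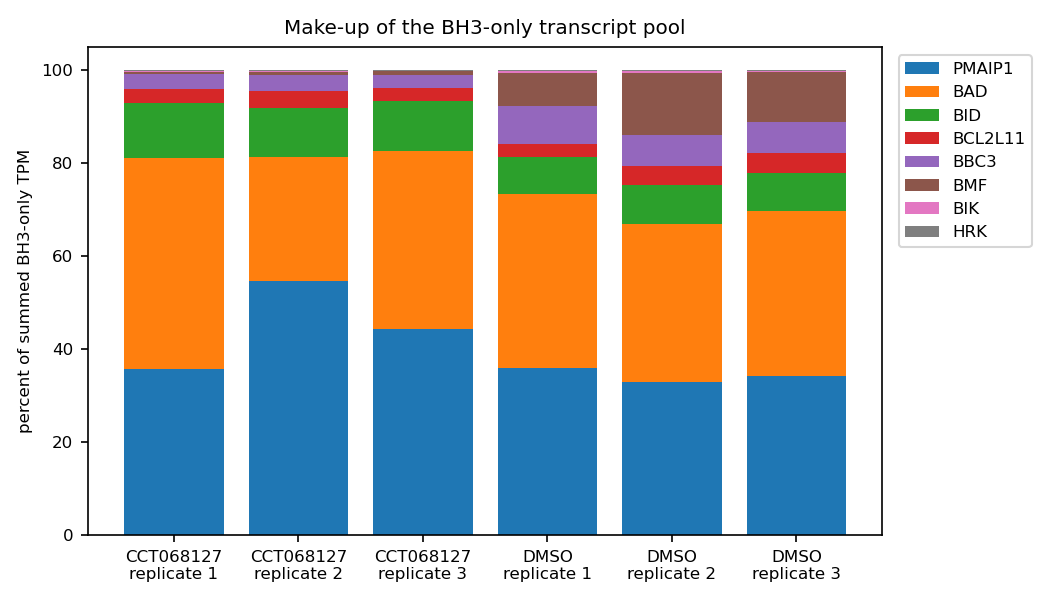
Share of each member in the summed TPM of the 8 BH3-only genes (percent, stacked to 100) in each CCT068127 and DMSO library. The BMF band is 0.535% to 0.732% in treated cells and 7.09% to 13.4% in DMSO cells, while PMAIP1 and BAD fill most of every bar.

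Set beside the proteins they bind, the pro-survival genes were also split. BCL2L1, which encodes BCL-XL, rose (380 ± 28.6 CPM in treated cells and 225 ± 36.8 CPM in DMSO cells; log2 fold change 0.75; edgeR adjusted p = 0.000367), a call lost on log2(TPM + 1) values (0.29, limma adjusted p = 0.0649). BCL2L2, which encodes BCL-W, fell (21 ± 3.21 CPM in treated cells and 52.9 ± 1.42 CPM in DMSO cells; -1.38; edgeR adjusted p = 4.9e-06). BCL2 (0.32) and MCL1 (-0.12) did not pass with TMM scaling (edgeR adjusted p = 0.276 and 0.301), and MCL1 fell under both other scales (-0.43 and adjusted p = 0.0028 with library totals, -0.61 and limma adjusted p = 0.00121 for log2(TPM + 1)). BCL2A1, the gene of BFL-1, was below the filter, with 6, 3 and 13 counts in treated cells and 115, 187 and 4 counts in DMSO cells. It passed as higher without a low-count filter (2.21, edgeR adjusted p = 7.02e-05) and on filtered log2(TPM + 1) values (1.16, limma adjusted p = 0.01). BCL2L10 was below the filter too, at 0.0677 ± 0.117 CPM in treated cells and 0.0496 ± 0.0452 CPM in DMSO cells. So of 6 pro-survival genes 4 were tested, 1 rose and 1 fell.

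The summed TPM of BH3-only over pro-survival genes was 0.963, 0.939 and 1.09 in treated cells and 0.964, 1.14 and 1.16 in DMSO cells, which overlap. The ratio of PMAIP1 to MCL1, its preferred partner, did not overlap: 1.2, 1.48 and 1.41 in treated cells, against 0.836, 0.836 and 0.834 in DMSO cells. PMAIP1 alone overlapped in TPM, and MCL1 stood at 119 ± 13.1 TPM in treated cells and 181 ± 6.96 TPM in DMSO cells (SD, n = 3). CPM values of single genes did not overlap for 69.4% of tested genes, and the share for other gene pairs was not computed. A ratio of RNA levels does not give the ratio of the proteins. Among the 3 effectors BOK fell (64.4, 27.3 and 62.5 CPM in treated cells, against 116, 106 and 101 CPM in DMSO cells; a 0.5003 ratio; edgeR adjusted p = 0.00312). BAX stood at 51, 36.4 and 39.6 CPM in treated cells and at 56.2, 51.3 and 47.6 CPM in DMSO cells. BAX (-0.27) and BAK1 (-0.13) did not pass with TMM scaling (edgeR adjusted p = 0.105 and 0.419), and both were called lower under library totals (adjusted p = 0.00262 and 0.0148) and for log2(TPM + 1). BAX was also called lower without CCT068127 replicate 1 (-0.47, edgeR adjusted p = 0.00876). No effector was called higher by edgeR, also at an unadjusted p under 0.05, nor by DESeq2 or limma (0 of 3 each).

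**Figure D4:**
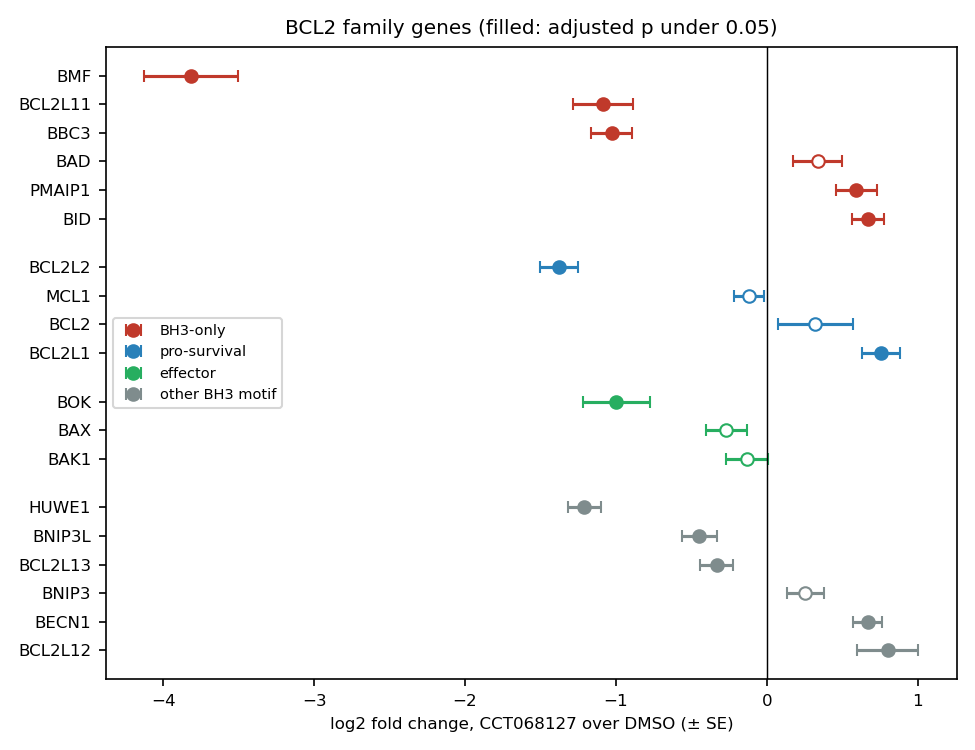
Log2 fold change of CCT068127 over DMSO ± SE (edgeR) for BH3-only, pro-survival, effector and other BH3-motif genes; filled points passed an adjusted p of 0.05. BMF at -3.81 lies far left of all others, and each of the BH3-only, pro-survival and BH3-motif groups has genes on both sides of 0.

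Of 7 other genes with a BH3 or BH3-like motif 6 were tested, 2 rose and 3 fell. HUWE1, the ubiquitin ligase of MCL1, fell by 1.21 on the log2 scale, to 123 ± 16.7 CPM in treated cells, against 281 ± 3.87 CPM in DMSO cells (edgeR adjusted p = 5.25e-06). The mitophagy receptor gene BNIP3L had a log2 fold change of -0.45 and BCL2L13 of -0.33, and both fell, though BCL2L13 no longer passed once CCT068127 replicate 3 was left out (0.0511). BECN1, an autophagy gene, rose by 0.67 but did not pass for log2(TPM + 1) (0.18, limma adjusted p = 0.0948), where 0 of these genes were higher and 3 were lower.

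All 12 transcription factors known to act on BH3-only genes were called, with 5 that rose and 7 that fell, or 3 and 7 on log2(TPM + 1) values. Over all genes 64.7% were called with TMM scaling, 31.9% higher and 32.8% lower, and the counts of this and the next lists are to be read against those shares. TP73 rose by 0.60 on the log2 scale (edgeR adjusted p = 0.00709), and its call was lost without CCT068127 replicate 1 (0.41, 0.0591), under library totals (0.29, 0.124), without a low-count filter (0.35, 0.177) and for log2(TPM + 1) (0.05, limma adjusted p = 0.751). E2F1 rose to 100.5 ± 15 CPM in treated cells, against 14.8 ± 1.03 CPM in DMSO cells (log2 fold change 2.80; edgeR adjusted p = 7.35e-08). All 3 listed FOXO genes fell, with log2 fold changes of -1.90 for FOXO4, -1.13 for FOXO1 and -0.47 for FOXO3, the factor best known for BCL2L11 (edgeR adjusted p = 7.14e-06, 8.76e-05 and 0.00809). ATF4, a known activator of PMAIP1, fell to 286 ± 5.88 CPM in treated cells, against 821 ± 47.5 CPM in DMSO cells (edgeR adjusted p = 2.96e-07). DDIT3, which encodes CHOP, fell by 1.86 on the log2 scale (edgeR adjusted p = 0.000124). ATF3 (1.57) and JUN (1.39) went the other way and rose (edgeR adjusted p = 0.000168 and 2.47e-06). Both stayed higher for log2(TPM + 1) (0.86 and 0.89, limma adjusted p = 0.0121 and 0.000434).

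Of 22 genes for proteins that anchor, phosphorylate, sequester, cleave or turn over BH3-only proteins or MCL1, 7 rose and 5 fell, or 4 and 13 on log2(TPM + 1) values. The 14-3-3 genes SFN (2.86), YWHAH (1.17) and YWHAQ (0.87) rose on the log2 scale (edgeR adjusted p = 3.64e-07, 3.63e-06 and 1.1e-05). Of the other 4 14-3-3 genes listed, YWHAE (0.89) and YWHAZ (0.62) rose, with the YWHAZ call lost for log2(TPM + 1) (0.14, limma adjusted p = 0.226). YWHAB (-0.10) and YWHAG (0.11) did not pass with TMM scaling, and for log2(TPM + 1) both were called lower (-0.42 and -0.37, limma adjusted p = 0.0148 and 0.00748). USP9X, a deubiquitinase of MCL1, fell by 0.83 on the log2 scale (edgeR adjusted p = 4.47e-05). The dynein light chain genes DYNLL1 (-0.05) and DYNLL2 (-0.10) and the BID protease gene CASP8 (-0.17) did not pass with TMM scaling (edgeR adjusted p = 0.676, 0.475 and 0.273). All 3 were called lower under library totals (adjusted p = 0.00408, 0.00916 and 0.0091) and for log2(TPM + 1) (limma adjusted p = 0.000329, 0.0057 and 0.00264). Of 11 genes acting after membrane permeabilisation, 4 rose and 3 fell, or 2 and 5 on log2(TPM + 1) values. CYCS, the cytochrome c gene, rose to 264 ± 32.1 CPM in treated cells, against 59.7 ± 1.97 CPM in DMSO cells (log2 fold change 2.14; edgeR adjusted p = 1.39e-07). APAF1, which encodes the scaffold of the apoptosome, rose by 0.54 on the log2 scale (edgeR adjusted p = 0.00306), a call lost under library totals (0.23, adjusted p = 0.117) and for log2(TPM + 1). XIAP, a caspase inhibitor, fell by 0.81 on the log2 scale (edgeR adjusted p = 5.04e-05).

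The direction of a small change depends on the scaling, since the median log2 fold change over all genes was -0.05 with TMM, -0.36 with library totals and -0.46 on log2(TPM + 1) values. Calls over all genes split into 4333 higher and 4460 lower with TMM, 2999 and 6581 with library totals, and 2474 and 7472 on log2(TPM + 1) values. BMF and BBC3 stayed lower and past the threshold in all 17 alternatives with a test, whose log2 fold changes ran from -4.28 to -3.60 for BMF and from -1.45 to -0.97 for BBC3.

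**Figure D5:**
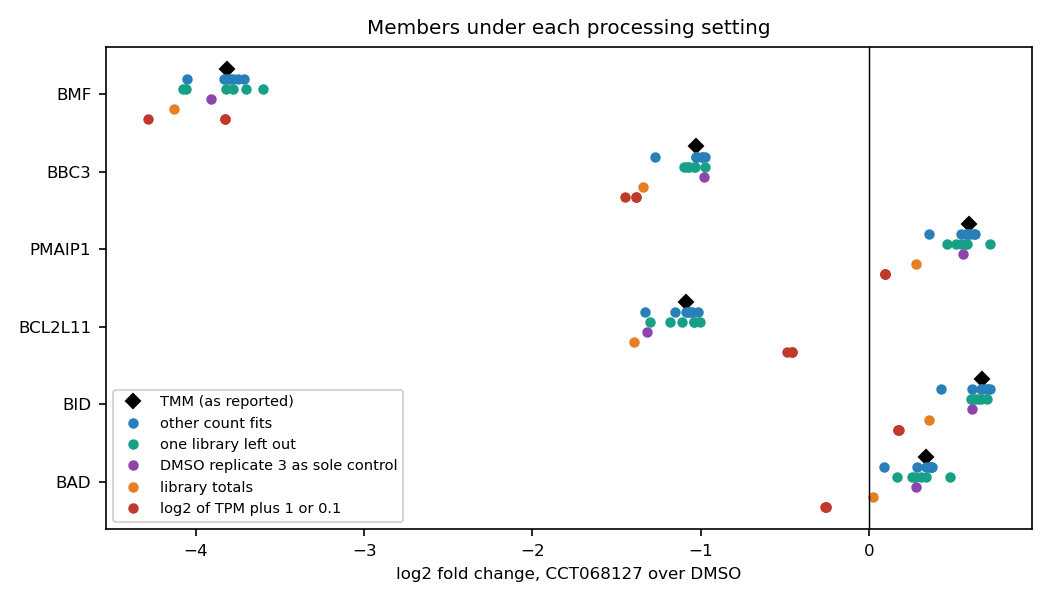
Log2 fold change of CCT068127 over DMSO for the 6 tested BH3-only genes under each processing setting; the black diamond is the reported fit and the other colours are alternatives. BMF stays between -4.28 and -3.60, BCL2L11 moves to -0.46 on TPM values, and BAD lies on both sides of 0.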

How the data were processed

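Poly(A)-selected RNA of T-24 cells was sequenced after 48 h with 1 µM CCT068127 (n = 3) or DMSO (n = 3), and groups and replicate numbers come from the sample titles. The authors deposited expected counts per gene symbol, held as whole numbers, and a TPM table of those libraries. The submitters' processing notes name RSEM, Bowtie and hg38, and their versions, the annotation and the strandedness are not given in the sources used here. The labels call the samples independent biological replicates.

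Counts were tested with edgeR 4.0.16 in R 4.3.3 (two-sided quasi-likelihood test, TMM, filterByExpr with a minimum count of 10 in at least 3 libraries, which is 1.74 CPM at the median library, Benjamini-Hochberg adjustment over 13597 genes, calls under 0.05). SE were approximated from the F statistic, and CPM use TMM-scaled totals. Limma 3.58.1 was run on log2(TPM + 1), which understates changes of low genes, and DESeq2 1.42.0 was an alternative, as were other scalings and filters, thinning and leaving out each library. The scripts were tested on simulated data. A gene at 0 counts was limited, at 3 counts, to 0.0073 to 1.53 CPM. Intervals cover counting error only.

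No replicate pair agreed within counting noise (chi-square per degree of freedom 1.95 to 9.23). For this, DMSO replicates 1 and 2 were thinned to the depth of DMSO replicate 3, and genes with a summed count of at least 20 were used. The members and gene lists were chosen with earlier results of these data known. Named were all 8 members, all survival and effector genes, the called genes of each other list with the smallest adjusted p (up to 3 in the direction most of them took, 1 in the opposite one), the 5 genes nearest to BMF, and overlapping genes. TP73, FOXO3, DDIT3, ATF3, JUN, DYNLL1, DYNLL2, CASP8 and 4 more 14-3-3 genes were named beyond that rule, for their known role, after their values were seen. Some genes that the rule names are not reported here. Promoters are from RefSeq (7 of 8 members had a window).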

Additional observations from a re-analysis of the deposited data

How the results depend on the processing

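Among the 17 alternatives with a test, BMF and BBC3 kept their direction and call in 17, BCL2L11 in 16, BID in 14 and PMAIP1 in 13. The number of members called higher was 2, but 1 with library totals and 0 on log2(TPM + 1) values with or without a filter and on log2(TPM + 0.1) values, where 0 were higher also at an unadjusted p under 0.05. Members called lower numbered 3 or 4 in every setting. Leaving out 1 library gave 2 to 3 higher and 3 lower. Over all genes, log2(TPM + 1) gave 2474 higher and 7472 lower calls, log2(TPM + 0.1) gave 2444 and 7299, and 7365 were lower without a TPM filter. BAD turned negative on log2(TPM + 1) values with and without a filter (-0.26) and on log2(TPM + 0.1) values (-0.26); the cause was not tested. The implied effective length of BBC3 turned to 0.14 when scaled by library totals, and that of BID, near 0, ranged from -0.00207 to 0.00516 on leaving out 1 library and was negative without DMSO replicate 1 (-0.000192) or 2.

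Same-numbered samples did not deviate together (correlations 0.00999, 0.00471 and 0.0095), so no pairing by number was seen. Counting noise in the shallow libraries could hide a pairing, so this check cannot exclude one. With the replicate number as a block, 2 members were higher and 3 lower, and 4107 genes were higher and 4190 lower, so no member changed its call. Under library totals the effector genes gave 3 lower in place of 1, survival genes 2 in place of 1 and partner genes 10 in place of 5. The same effector and survival counts came from log2(TPM + 1) values, with 13 partner genes lower and 4 higher in place of 7. Regulators called higher numbered 3 in place of 5 there. Effectors called lower numbered 2 without CCT068127 replicate 1, and 3 without a low-count filter. The CCT068127 libraries, at 1966742 to 5557546 counts, limit BIK and HRK, whose treated values rest on 4 and 21 counts. No spike-in is named in the labels, so all changes are relative to other transcripts.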
